A study of Anthoceros agrestis with 2 samples.

Results

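The GC-rich bins of ordinary CG content are 8332 windows of 1 kb on the 6 chromosomes of Anthoceros agrestis, of 124399 full windows counted from position 1 of each chromosome. A window was taken when at least 560 of its bases were cytosines of either strand, which is a GC content of 56% or more, and when its CG ratio lay from 0.40 to below 0.80. The CG ratio is the number of CG dyads divided by the number that the G and C content alone would give, so a ratio below 1 means fewer CG dyads than base composition predicts. The rule itself used no methylation value, but it was set with earlier results of these data known. The chosen bins held 560 to 724 cytosines (median 582) and 32 to 101.5 CG dyads (median 59), a dyad on a bin edge counting 0.5 in each bin.

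The DNA came from 4-wk-old thalli, the flat haploid plant body, of the wild-type Oxford strain of this hornwort, grown without treatment, and the series holds 1 group of 2 biological replicates. Enzymatic methyl-seq (EM-seq) converts unmethylated cytosines so that they are read as T, while 5-methylcytosines are still read as C. The authors deposited methylated and unmethylated read counts for every cytosine in replicate 1, in replicate 2 and with the reads of both merged before mapping. The median depth over the chromosomes was 9 reads per cytosine in the merged report and 4 reads in each replicate, so levels are means over cytosines with at least 10 reads in the merged report and at least 5 reads in a replicate.

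In flowering plants CG methylation is copied after replication by the methyltransferase MET1, and CHG methylation, where H is A, C or T, is kept by chromomethylases that bind histone H3 methylated in heterochromatin. Dense methylation in both contexts is known mainly from transposable elements (TEs), while genes of many plants are unmethylated or carry CG methylation alone. Because methylated cytosines are prone to mutate to T, a low CG ratio is usual in DNA that has been methylated over many generations.

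A stretch of 120 bases from each of 4 GC-rich bins shows the kinds of sequence at stake, each the stretch with most CG dyads in its bin. The letters were rebuilt from the cytosine positions and trinucleotides of the deposited reports in the coordinates of the Oxford assembly, plus strand, 5′ to 3′, with CG dyads in capitals and n where the reports did not fix the base. The first comes from the GC-richest bin of all (chromosome 1, 8137758 to 8137877) and holds 18 CG dyads.
GC-richest: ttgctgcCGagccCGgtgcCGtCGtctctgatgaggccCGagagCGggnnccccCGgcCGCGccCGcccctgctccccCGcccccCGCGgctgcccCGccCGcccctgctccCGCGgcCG
The second comes from the unmethylated bin with most CG dyads (chromosome 4, 17201515 to 17201634) and holds 17 dyads.
Unmethylated: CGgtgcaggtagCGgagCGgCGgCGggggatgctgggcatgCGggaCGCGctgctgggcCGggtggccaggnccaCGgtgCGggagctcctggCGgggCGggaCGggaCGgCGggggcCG
The third comes from the bin that had the highest merged CHG level of the bins where 20 or more sites of each context, CG and CHG, were covered (chromosome 1, 20514174 to 20514293) and holds 12 dyads.
CHG-methylated: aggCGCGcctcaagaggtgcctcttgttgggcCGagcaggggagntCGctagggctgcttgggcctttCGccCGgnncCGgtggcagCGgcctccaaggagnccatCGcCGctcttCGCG
The fourth comes from the bin with, among these, the largest merged excess of CG over CHG methylation (chromosome 6, 1098027 to 1098146) and holds 11 dyads.
CG only: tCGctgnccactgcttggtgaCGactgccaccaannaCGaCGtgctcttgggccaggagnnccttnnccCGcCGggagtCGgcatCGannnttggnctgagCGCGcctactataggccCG

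At the CG cytosines of the GC-richest stretch, 0 of 198 merged read calls were methylated (0 of 90 in replicate 1, 0 of 108 in replicate 2), which allows a share of up to 1.52%. At those of the unmethylated stretch 0 of 167 merged calls were methylated (0 of 44 and 0 of 123), which allows up to 1.80%, and no single one of its 34 CG cytosines reached 10 reads. At the CG cytosines of the CHG-methylated stretch 192 of 200 calls were methylated, or 96.0% (95% Wilson interval 92.3% to 98.0%). Replicate 1 gave 94 of 94 and replicate 2 gave 98 of 106. At those of the stretch labelled CG only, 193 of 210 calls were methylated, or 91.9% (87.4% to 94.9%), with 93 of 98 and 100 of 112 in replicates 1 and 2. CHG calls inside the stretches were not counted, so the labels CHG-methylated and CG only describe the whole bins. The first pair of stretches and the second pair lay at opposite ends of the scale. All but the GC-richest stretch came from bins picked by their methylation in these same reads, so their place on the scale follows from that choice. The limits for counts of 0 are 3 divided by the number of calls. Limits and intervals cover counting error only and treat every call as independent. Neighbouring cytosines can be read from the same DNA fragment, so they are too narrow.

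GC-rich bins were less methylated in CG and CHG than the 83517 other bins of the same CG ratio range, which have fewer than 560 cytosines. The 2 sets share this range but not the ratio itself, with a median of 0.6849 in GC-rich bins and 0.5783 in the other bins. Narrowing the range to 0.50 to below 0.70 took the merged CG difference from −14.6 to −10.1 points. How much of the difference goes with the ratio was not tested. The mean CG level of the GC-rich bins was 23.9% in replicate 1, 21.9% in replicate 2 and 21.7% in the merged report (462913 cytosines), against 37.97%, 36.2% and 36.3% in the other bins (3065270 cytosines). The replicates averaged 22.9% ± 1.4 in GC-rich bins and 37.1% ± 1.2 in the other bins (SD, n = 2). The difference was −14.1 points in replicate 1 and −14.4 points in replicate 2, a mean of −14.2 ± 0.223 points, and so was much larger than the spread between the replicates.

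In CHG the GC-rich bins reached 16.4% in replicate 1, 14.9% in replicate 2 and 14.96% in the merged report, against 20.8%, 19.5% and 19.7% in the other bins, a difference of −4.42 and −4.61 points in the 2 replicates. CHH methylation was low in GC-rich bins, with 0.656% and 0.601% in the replicates, against 0.753% and 0.752% in the other bins, and here the difference of −0.124 ± 0.0390 points (SD, n = 2) was small in size. Bins of ordinary ratio just below the GC limit differed from the other bins as a whole. From 500 to below 540 cytosines CHG was 16.4% and 15.3% in the replicates, nearly that of GC-rich bins, and CHH was 0.506% and 0.494%. From 540 to below 560 cytosines CHG was 18.8% and 17.0%, and CHH was 0.587% and 0.553%. In both classes CHH was thus lower than in GC-rich bins. With 2 replicates of 1 group an exact two-sided sign-flip test cannot give a p below 0.5, so every difference is set against the spread between replicates and no test is given.

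The size of the mean depended on which cytosines were counted. When each bin had equal weight, GC-rich bins averaged 31.1% and 30.7% CG methylation in the 2 replicates and 30.8% in the merged report, against 45.1%, 44.6% and 44.7% in the other bins, and the difference (−13.9 points) stayed close to that over sites. Cytosines with at least 20 merged reads, only 2.34% of the CG sites of the GC-rich bins, had a mean CG level of 52.5% and lay 4.34 points above those of the other bins. Of these deep sites in GC-rich bins 52.7% lay in bins scored as methylated and 23.7% on chromosome 6, against 21.6% and 8.73% of the sites with at least 10 reads. At the shallow end the direction was the opposite, since bins scored as methylated held 27.97% of all CG sites of the GC-rich bins, 24.7% of those with at least 5 reads and 21.6% of those with at least 10, against 33.3%, 32.8% and 30.5% in the other bins. Read depth thus moved with methylation in both directions, and its part in the means was not tested.

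Few GC-rich bins had intermediate levels, and nearly all were either unmethylated or methylated in both contexts. A bin was scored when 5 or more CG sites and 5 or more CHG sites were covered, which held for 7779 GC-rich bins and not for 553. Of the scored GC-rich bins 5228, or 67.2%, were unmethylated (CG and CHG both below 5%), while 39.8% of all scored bins of the chromosomes were. The share was 66.6% in replicate 1 and 67.0% in replicate 2, against 39.96% and 40.2% in the other bins of ordinary ratio. Methylated GC-rich bins (CG 50% or more, CHG 30% or more) numbered 2355, or 30.3%, where all scored bins gave 37.7%. Their share was 30.8% and 30.5% in the replicates, against 37.7% and 37.3% in the other bins of ordinary ratio. Just below the GC limit the merged methylated share was 27.52% from 500 to below 540 cytosines and 32.01% from 540 to below 560. The methylated share of GC-rich bins lay between these values, so it was not low beside bins of nearly the same GC content. The unmethylated share of these classes, 57.97% and 62.2%, was below that of GC-rich bins.

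The states in between were scarce in GC-rich bins. Bins with CG methylation of at least 50% but CHG below 10%, called CG only, numbered 23 among GC-rich bins, or 0.296%, while they made up 6.48% of all scored bins. Their share was 0.345% and 0.307% in replicates 1 and 2, against 5.57% and 5.36% in the other bins of ordinary ratio. Bins of none of the 3 kinds, called intermediate, numbered 173 among GC-rich bins, or 2.22%, while all scored bins held 16% of them. Scored GC-rich bins with a ratio of 0.80 or more held few of either kind as well, with 0.0733% CG only and 1.955% intermediate. Scored bins of ordinary ratio with 540 to below 560 cytosines also held few, with 0.63% CG only and 5.2% intermediate. By CG level alone, 5004 GC-rich bins lay below 1% and 1876 at 95% or above, with 52 from 20% to below 50% and 52 from 50% to below 80%. Single CG sites showed the same division, with 0.970% of covered CG cytosines in GC-rich bins at a level from 20% to below 80%, against 3.44% in the other bins. Single CHG sites did not. In GC-rich bins 10.6% of covered CHG cytosines lay from 20% to below 80% and 9.88% at 80% or more, against 15.4% and 12.1% in the other bins.

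**Figure D1:**
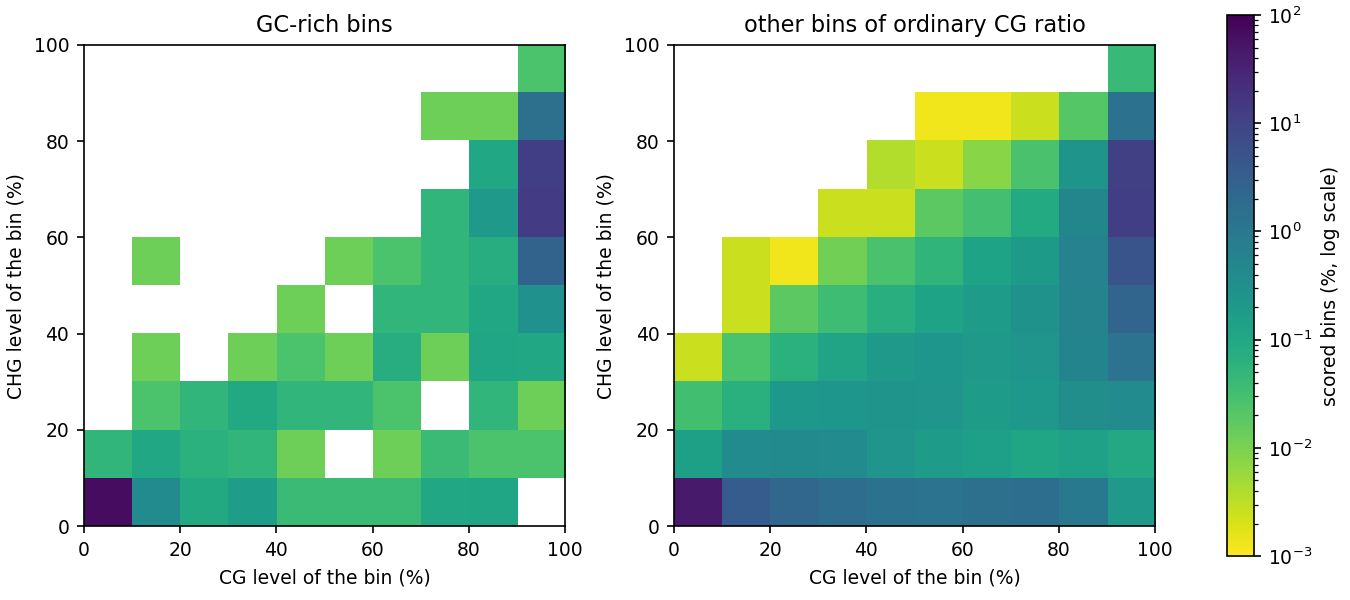
Share of scored bins (%, logarithmic colour scale) by CG level and CHG level in squares of 10 points, for GC-rich bins on the left and the other bins of ordinary CG ratio on the right, in the merged report. The corner below 10% in both contexts held 67.9% of GC-rich bins and 43.5% of the other bins, and the strip along the bottom, CG without CHG, is faint in GC-rich bins.

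The class of a GC-rich bin was stable between replicates. Of 7748 GC-rich bins scored in both, 7659 (98.9%) had the same class, and 2 were methylated in one replicate and unmethylated in the other.

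Within the methylated kind, GC-rich bins were more methylated than the other methylated bins, by small differences that exceeded the spread between replicates. Their CG level was 96.4% in replicate 1 and 95.8% in replicate 2, against 94.3% and 93.6%, a difference of 2.12 ± 0.0395 points (SD, n = 2). Their CHG level was 68.7% and 67.3%, against 65.8% and 64.3%, a difference of 3.01 ± 0.103 points. The CHH level was 2.22% and 2.12%, against 1.85% and 1.898%, a difference of 0.296 ± 0.0995 points. The spread of bins was also narrower, since the lower 5% of methylated GC-rich bins began at a CG level of 91.7%, against 80.6% in the other methylated bins. The methylated sets were not matched by chromosome. On chromosome 6 88.4% of scored GC-rich bins and 81.8% of the other bins were methylated, and on chromosomes 1 to 5 23.1% and 33.8%. The part of chromosome in these differences was not tested.

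The trinucleotide at the cytosine showed where the excess lay. CCG sites, the CHG sites whose second cytosine belongs to a CG dyad, were methylated to 37.4% and 35.8% in methylated GC-rich bins, against 28.5% and 27.5% in the other methylated bins, a difference of 8.64 ± 0.372 points (SD, n = 2). CAG sites reached 82% and 80.2%, against 76.0% and 74.0%, a difference of 6.12 ± 0.146 points. CTG sites reached 76.8% and 75.7%, against 71.6% and 70.3%, a difference of 5.31 ± 0.109 points. All 3 kinds of CHG site were thus higher by 5.31 to 8.64 points, more than the 3.01 points seen over CHG as a whole. CCG, the least methylated of the 3, made up 6.38% of the cytosines of methylated GC-rich bins, against 3.53% in the other methylated bins.

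In CHH the differences were uneven. CAA sites were methylated to 8.43% and 8.06% in methylated GC-rich bins, against 5.10% and 5.03% in the other methylated bins, a difference of 3.18 ± 0.209 points (SD, n = 2). CTA sites stood at 4.86% and 4.50%, against 3.15% and 3.09%, a difference of 1.56 ± 0.211 points. For CAC sites the difference (0.0800 ± 0.0986 points) was no larger than the spread between replicates. Methylated GC-rich bins hold few CAA sites, 5.36% of their cytosines against 9.47% in the other methylated bins. With the CHH trinucleotides weighted as in the other bins, their CHH level was 2.69% and 2.58% in the replicates, against the 1.85% and 1.898% of the other methylated bins.

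The unmethylated kind lay close to 0 in every context. The CG level of unmethylated GC-rich bins was 0.208% in replicate 1 and 0.211% in replicate 2, against 0.541% and 0.527% in the other unmethylated bins, a difference of −0.325 ± 0.0120 points (SD, n = 2). Their CHG level was 0.102% and 0.125%, and their CHH level 0.0814% and 0.0983%. The lower limit set by incomplete conversion and sequencing error was not measured in these reports, so levels of this size are not read as methylation.

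At a fixed CG ratio range the merged CG level fell with each class of GC content from 300 to below 600 cytosines. From 600 to below 680 cytosines it rose again. Replicate 2 followed the same course, while replicate 1 was nearly level between the classes from 500 to below 560 cytosines. From 300 to below 340 cytosines per bin the CG level was 82.6% in replicate 1 and 81.3% in replicate 2. It was 36.2% and 34.5% from 460 to below 500 cytosines and 27.4% and 25.7% from 500 to below 540. Inside the GC-rich range it was 24.8% and 23.0% from 560 to below 580 cytosines, 21.4% and 19.5% from 580 to below 600, and 23.6% and 21.8% from 600 to below 640. In the 535 bins from 640 to below 680 cytosines it was 30% and 25.3%. Within the GC-rich range the classes up to 680 cytosines thus followed no single direction.

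The 47 bins with at least 680 cytosines stood apart, with CG levels of 2.37% and 1.47% in replicates 1 and 2. Of 45 scored bins among them 95.6% were unmethylated. At the lower limit of GC content, bins from 560 to below 570 cytosines inside it had a merged CG level of 23.1%, and those from 550 to below 560 cytosines outside it had 25.5%. Around the upper ratio limit, the level was 16.4% from 0.78 to below 0.80 inside it and 15.2% from 0.80 to below 0.82 outside it. At the lower ratio limit, the 62 bins from 0.40 to below 0.42 had 45.6%, with 47.5% of scored bins unmethylated, and the 52 bins from 0.38 to below 0.40 had 52.7%, with 34.04% unmethylated.

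**Figure D2:**
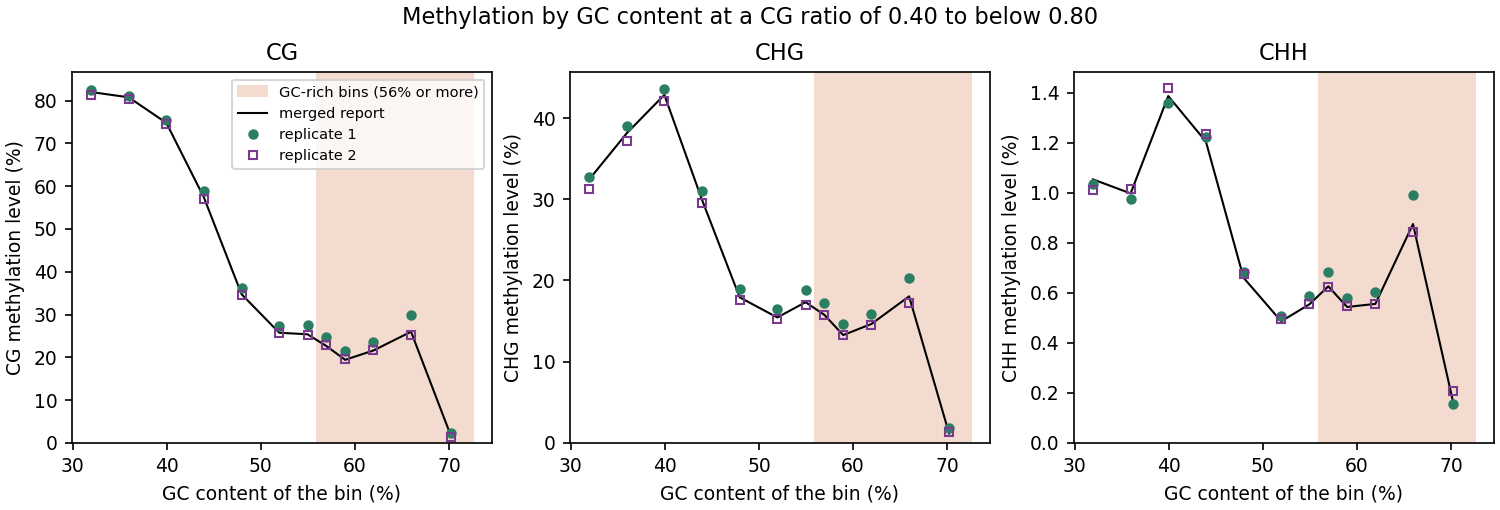
Mean CG, CHG and CHH methylation level (%) of bins with a CG ratio from 0.40 to below 0.80, by GC content of the bin (%), with the merged report as a line, replicate 1 as filled circles and replicate 2 as open squares. The shaded range is that of the GC-rich bins, where the CG level lies between 19.4% and 25.98% until it falls to 1.55% in the GC-richest class.

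Within the GC-rich bins a higher CG ratio went with less methylation. The CG level was 35.8% in replicate 1 and 33.0% in replicate 2 in the 465 bins with a ratio from 0.40 to below 0.50. It was 27.8% and 25.7% from 0.50 to below 0.60, 25.8% and 23.4% from 0.60 to below 0.70, and 20.5% and 18.8% from 0.70 to below 0.80. The unmethylated share ran from 55.5% in the lowest of these ratio classes to 70.7% in the highest. Beyond the chosen range, GC-rich bins with a ratio of 0.80 or more (6581 bins) had 22.7% and 20.8%, and the 178 GC-rich bins below 0.40 had 45.3% and 43.8%. GC-rich bins of ordinary ratio thus exceeded the GC-rich bins of high ratio by 1.14 and 1.06 points in the 2 replicates in the mean over cytosines. The class shares ran the other way, with 30.8% and 30.5% of the scored GC-rich bins of ordinary ratio methylated in the replicates, against 37.1% and 36.7% of those of high ratio, and 66.6% and 67.0% unmethylated, against 61.0% and 61.1%. In the merged report 37.8% of the high-ratio bins could not be scored, against 6.64% of the bins of ordinary ratio.

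At a like number of CG dyads GC-rich bins were also less methylated. Among bins with 51 to 65 CG dyads, GC-rich bins of ordinary ratio had CG levels of 21.7% and 19.9% in replicates 1 and 2. Bins with as many dyads but 500 to below 560 cytosines had 28.1% and 26.2%, and those with 440 to below 500 cytosines had 44.1% and 42.3%. Holding dyads fixed raises the CG ratio as GC content falls, with medians of 0.689, 0.793 and 0.941 in the 3 sets, so this comparison does not hold the ratio fixed. Nor does it hold coverage fixed, since 3961 of 4308, 7208 of 8503 and 1125 of 1577 bins of the 3 sets could be scored.

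Chromosome 6, which is methylated along most of its length, differed from the other 5. On chromosomes 1 to 5 the CG level of GC-rich bins was 17.5% in replicate 1 and 15.99% in replicate 2, against 34.6% and 33.0% in the other bins, a difference of −17.0 ± 0.0381 points (SD, n = 2). As the mean of the replicates it was smallest in size on chromosome 3 (−11.7 points) and lay between −18.4 and −16.2 points on the other 4 of these chromosomes. On chromosome 6 the 985 GC-rich bins had 84.7% and 83.2%, against 80.7% and 79.2% in the other bins, a difference of 4.01 ± 0.0939 points in the opposite direction. Each difference was larger than its spread between replicates, while the difference between chromosome 6 and the other chromosomes was not tested.

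The class shares differed in the same way. On chromosomes 1 to 5, 74.5% of scored GC-rich bins were unmethylated, against 43.0% of the other bins, and the share ran from 64.7% on chromosome 3 to 81.0% on chromosome 4. On chromosome 6, 7.98% of scored GC-rich bins were unmethylated, against 7.74% of the other bins, and 88.4% were methylated, against 81.8%. GC-rich bins of ordinary ratio made up 8.37% of the bins of chromosome 6 and 5.90% to 7.32% of those of each other chromosome. Over 110 blocks of 1 Mb on chromosomes 1 to 5 the unmethylated share of GC-rich bins had a median of 78.6% and a range from 16.7% to 95.95%, while in the 11 blocks of chromosome 6 it did not exceed 21.3%.

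**Figure D3:**
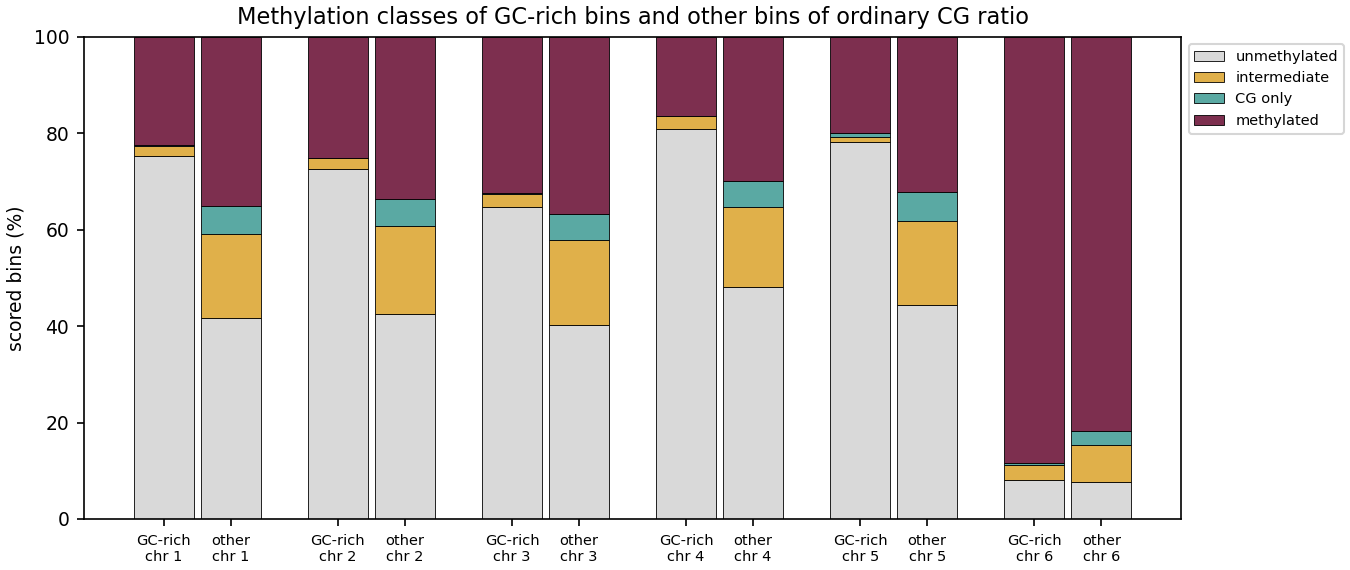
Share of scored bins (%) in each methylation class on chromosomes 1 to 6 in the merged report, with GC-rich bins to the left of the other bins of ordinary CG ratio for each chromosome. On chromosomes 1 to 5 between 64.7% and 81.0% of GC-rich bins were unmethylated, and on chromosome 6 88.4% were methylated.

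GC-rich bins of ordinary ratio mostly stood in short runs. They formed 6454 runs of adjacent bins, of which 5060 were 1 bin long and 95 were 4 bins or longer. A run also ended at a GC-rich bin outside the ratio range, so run length does not measure the length of GC-rich stretches. Of 1281 runs with at least 2 scored bins, 1225 (95.6%) had all scored bins in the same class, and 5 runs held both methylated and unmethylated bins. The longest run, 7 bins on chromosome 6 (1804001 to 1811000), was methylated throughout, with CG levels of 96.7% and 96.8% and CHG levels of 63.5% and 66.0% in replicates 1 and 2. Of the 2 runs of 6 bins named here, both on chromosome 1, that from 5425001 to 5431000 had CG levels of 0.132% and 0.111%, and that from 12068001 to 12074000 had 0.558% and 0.0581%. These runs show both kinds kept up over several kilobases.

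The difference from touching bins was smaller than that from the other bins of ordinary ratio, but the comparisons differ in more than position. Each run was compared with the bins touching it, which share its position but may have any CG ratio or GC content. Around scored GC-rich bins the mean GC content was 53.6% at 1 kb and 49.3% at 10 kb upstream. Runs had equal weight here. The part of each of these in the smaller difference was not tested. Over 6084 runs the GC-rich bins had a mean CG level of 28.8% in replicate 1 and 28.5% in replicate 2, against 33.0% and 32.8% in the touching bins, a difference of −4.27 ± 0.0310 points (SD, n = 2). In CHG the difference was −0.774 ± 0.0669 points. In CG 70.7% of runs lay within 5 points of their neighbours, 24.4% lay more than 5 points lower and 4.82% more than 5 points higher. Differences of more than 50 points were found in 112 runs that were lower and 38 that were higher than their neighbours.

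The neighbours of a GC-rich bin mostly had its class. Of the scored bins touching methylated GC-rich bins 96.7% were methylated, against 84.2% for the other methylated bins. Of those touching unmethylated GC-rich bins 81.0% were unmethylated, against 74.3% for the other unmethylated bins. Isolated cases were few. Of 5183 unmethylated GC-rich bins 5 (0.0965%) had methylated bins on both sides, against 12 of 30973 other unmethylated bins (0.0387%). Of 1913 methylated GC-rich bins 1 (0.0523%) had unmethylated bins on both sides, against 80 of 25854 other methylated bins (0.309%).

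Around unmethylated GC-rich bins the CG level rose with distance, with 4.68% and 4.43% in replicates 1 and 2 at 1 kb upstream in assembly coordinates, 14.95% and 14.2% at 2 kb, and 25.7% and 24.5% at 10 kb. Around methylated GC-rich bins it was 93.7% and 92.9% at 1 kb upstream, 87.5% and 86.3% at 2 kb and 63.7% and 61.3% at 10 kb. The average GC content was 59.1% in unmethylated GC-rich bins, 52.9% at 1 kb and 49.01% at 10 kb upstream. Around methylated GC-rich bins the GC content was 59.07% in the bins, 55.1% at 1 kb and 52.8% at 2 kb upstream. The values at distance 0 follow from how the bins were chosen and classed, so these profiles are a description.

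**Figure D4:**
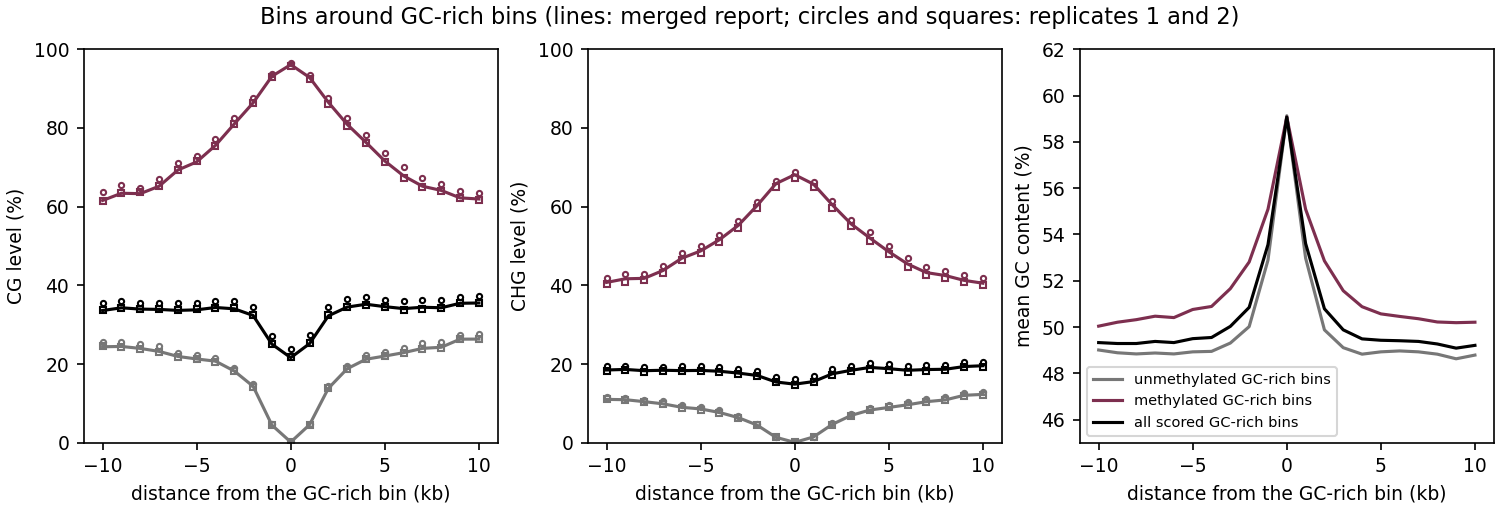
CG level (%), CHG level (%) and mean GC content (%) of bins at distances up to 10 kb on either side of GC-rich bins, for unmethylated, methylated and all scored GC-rich bins, with lines for the merged report and circles and squares for replicates 1 and 2. The methylated kind peaks at 96.1% and the unmethylated kind falls to 0.197% CG methylation at distance 0, where the choice and the classing of the bins fix the peak in each panel.

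Sequence repeated elsewhere in the chromosomes differed widely between the kinds of GC-rich bin. Repetition was measured as the share of positions in a bin that start a word of 40 letters, written only as C, G or other, found at least 1 more time on either strand of chromosomes 1 to 6. The median share was 62.3% in the 2355 methylated GC-rich bins and 0% in the 5228 unmethylated ones. In the other bins of ordinary ratio the medians were 26.3% for methylated and 0% for unmethylated bins. The same gap between methylated and unmethylated GC-rich bins was seen within chromosomes 1 to 5, with medians of 64.7% and 0%, and within chromosome 6, with 54.6% and 10.8%.

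Among 4689 scored GC-rich bins with less than 5% repeated positions, 92.8% were unmethylated and 5.44% methylated, against 53.1% and 20.9% of the other bins with as little repetition. Their CG level was 5.14% in replicate 1 and 4.76% in replicate 2, against 24.8% and 23.9% in such other bins. Among the 571 scored GC-rich bins with 80% or more repeated positions 91.2% were methylated and 5.43% unmethylated, against 75.5% and 12.5% of such other bins. Their CG level was 90.6% and 89.0%, against 78.04% and 76.4%. The CG level of GC-rich bins was thus below that of the other bins at little repetition and above it at much repetition. In between, it was 28.9% and 28.3% from 5% to below 20% repetition, against 38.2% and 37.0%, and 86.1% and 85.0% from 50% to below 80%, against 76.0% and 74.3%.

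**Figure D5:**
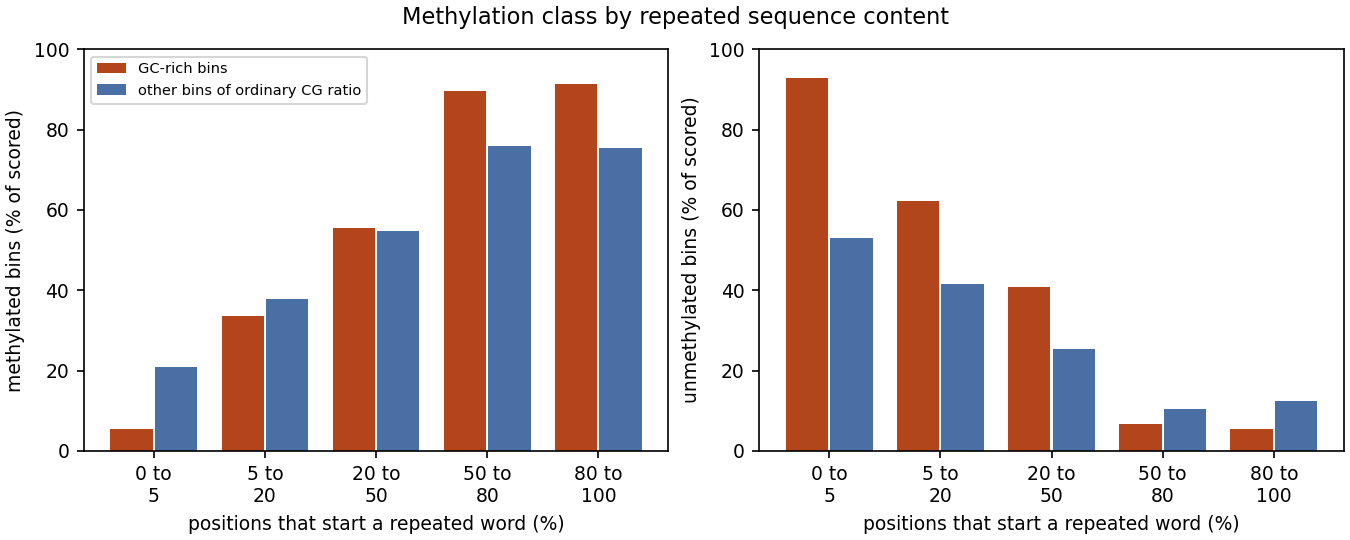
Share of scored bins (%) that were methylated (left) and unmethylated (right) in the merged report, by the share of positions that start a repeated word (%), with GC-rich bins to the left of the other bins of ordinary CG ratio in each pair of bars. Below 5% repetition 92.8% of GC-rich bins were unmethylated, and from 80% repetition 91.2% were methylated.

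Repetition also moved with read depth. Methylated GC-rich bins had a median of 8 merged reads per cytosine and 9.37% of cytosines without reads, and unmethylated ones 10 reads and 1.04%. The 553 unscored GC-rich bins had no reads at 76.8% of their cytosines and a median of 87.1% repeated positions. The methylation of these unscored bins is unknown, and the effect of their absence on the shares was not tested. Over all GC-rich bins 45.7% of cytosines had at least 10 reads, against 52.2% in the other bins.

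The base order of the bins was compared as well. The G and C content of the 3 phases of a 3-base period, a spacing seen in coding sequence, differed by a median of 12.9 points in methylated and 12.3 points in unmethylated GC-rich bins, against 7.50 and 6.90 points in the other bins. Cytosines were also split unevenly between strands, the difference being a median of 14.6% of cytosines in methylated and 10.5% in unmethylated GC-rich bins, against 8.86% and 7.64% in the other bins. Both kinds of GC-rich bin thus had stronger periodicity and strand skew than the other bins, and neither measure tells coding sequence of genes from that of TEs.

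Single bins illustrate the extremes. The GC-richest bin (chromosome 1, 8137001 to 8138000, 72.4% GC, 100 CG dyads) had a CG level of 0% in both replicates over 99 covered sites and a CHG level of 0.129% and 0.221%. The next ones, on chromosome 1 from 11291001 (723 cytosines) and on chromosome 4 from 17201001 (716 cytosines), were also at 0% in CG and CHG in both replicates, over 20 and 62 covered CG sites. A further CG-dense bin on chromosome 4, from 9228001 with 100 dyads, was at 0% in both contexts. No word in any of these 4 bins was repeated.

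The highest merged CHG level among the 7181 GC-rich bins with enough sites was found on chromosome 1 from 20514001 to 20515000, with 88.0% and 84.2% in replicates 1 and 2 beside CG levels of 96.5% and 98.4%. This bin also had a CHH level of 12.9% and 9.71% and 70.1% repeated positions. The next were on chromosome 5 from 7489001, with CHG levels of 86.9% and 86.1%, and on chromosome 1 from 27895001, with 78.3% and 83.2%, although only 7% of the positions of the last were repeated. The first and second of these changed places in replicate 2, so their order is not resolved. The highest merged CHH level was that of a bin on chromosome 1 from 2762001, with 11.7% and 12.3% in the replicates. It was followed by bins on chromosome 3 from 4422001, with 11.2% and 9.92%, and on chromosome 2 from 4233001, with 9.14% and 14.3%. The replicates of the last differed by more than the gap between these bins, so their order is not resolved.

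The largest merged excess of CG over CHG was found on chromosome 6 from 1098001 to 1099000, with CG levels of 86.1% and 88.3% and CHG levels of 0.122% and 0.175%. It was followed by bins on chromosome 4 from 3755001, with CG levels of 87.3% and 81.0%, and on chromosome 1 from 19188001, with 86.5% and 82.2%, both with CHG levels below 1% in each replicate. The order is that of the merged report and is not resolved, since in replicate 1 both of these bins had higher CG levels than the bin on chromosome 6. All 3 had no repeated words, unlike most methylated GC-rich bins. Of the 45 scored bins touching the 23 CG only GC-rich bins, 32 (71.1%) were also CG only, against 4000 of 8448 (47.4%) for CG only bins among the other bins of ordinary ratio.

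The gene list of the study was used here only in part, for 2000 genes that all belong to its cluster 1, so no share of genes is given and the genes named are examples. Among the 2000, the gene with most bases inside GC-rich bins of ordinary ratio, AnagrOXF.S3G052600 (chromosome 3, 2976982 to 2991662, minus strand), had 6662 of its 14681 bp in GC-rich bins and CG levels of 0.0589% and 0.247% in replicates 1 and 2. AnagrOXF.S1G461500 (chromosome 1, 21593684 to 21600103, minus strand) had 4000 bp inside and CG levels of 0.311% and 0.101%. AnagrOXF.S5G246800 (chromosome 5, 10657238 to 10660775, minus strand) lay inside over its whole 3538 bp, with 0.159% and 0%. The study formed its gene clusters from histone marks and then described the methylation of the clusters in these samples. The low levels of these 3 genes are thus a description and no result about GC-rich genes. Exons and introns of the genes were not used here.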

How the data were processed

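Levels were computed from EM-seq of 2 biological replicates, both wild-type Oxford thalli aged 4 wk. The authors merged and sorted reads with SAMtools 1.9 and bedtools 2.27.1 for the merged report, trimmed them with Trim Galore, mapped with Bowtie2 within Bismark, and then deduplicated the alignments and extracted calls. The files the authors deposited hold unnormalized counts of methylated and unmethylated reads per cytosine of both strands of the Oxford assembly. The level of a cytosine was methylated over all reads, with a minimum of 10 reads (merged) or 5 reads (replicates), and a set of bins has the mean level of its cytosines. Bins of 1 kb needed 5 covered CG and 5 covered CHG sites for a class. The 3 reports held 648374160 (merged), 323429467 (replicate 1) and 325691541 (replicate 2) cytosine calls. The counting error of means over many sites was not computed, and the spread between replicates can be smaller than it. The merged report has no SD, and an SD of 2 replicates is itself imprecise. Low-depth sites are missing from the levels, which can shift means where depth and methylation move together.

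Analyses used Python 3.11.15, NumPy 2.4.6, Numba 0.67.0, PyArrow 21.0.0 and SciPy 1.17.1, and the level and class steps were tested on simulated data. The GC-rich bins, the classes and the lists of named bins were chosen with earlier results of these data known. Named were the 3 longest runs, the 3 bins with most cytosines, the 3 unmethylated bins with most CG dyads, and, among bins with at least 20 covered CG and CHG sites in the merged report and 10 in each replicate, the 3 bins with the highest CHG level, the largest CG minus CHG level and the highest CHH level (at least 100 CHH sites). Of genes, the 3 with most bases in GC-rich bins were named. A total of 15 alternatives was tried. Gene models, the remainder of the gene and TE lists, and data other than EM-seq were not used here.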

Additional observations from a re-analysis of the deposited data

Results flagged for a closer look

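The CG level of GC-rich bins minus that of the other bins of ordinary CG ratio had opposite signs in 2 parts of the genome in both replicates. On chromosome 6 it was 3.68 points in the merged report (4.08 in replicate 1 and 3.94 in replicate 2), and on chromosomes 1 to 5 it was −17.2 points (−17.1 and −17.0). The difference between these parts was not tested.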

How the results depend on the processing

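In the order CG, CHG and CHH level of GC-rich bins, unmethylated share, methylated share, CG difference and CHG difference from the other bins, and CG difference from touching bins, a minimum of 5 reads gave 25.1%, 16.8%, 0.676%, 65.7%, 31.7%, −13.9, −4.18 and −4.37 points. A minimum of 20 reads gave 52.5%, 37.9%, 1.41%, 52.9%, 43.4%, 4.34, 6.62 and −2.97 points, turning the direction of the CG and CHG differences from the other bins; it kept 2.26% of cytosines and 1080 scored GC-rich bins. Dividing methylated by all reads gave levels of 25.3%, 17.7% and 0.674% and differences of −11.6, −2.79 and −4.22 points. Equal weight of bins, chosen after seeing the data, gave 30.8%, 21.6% and 0.8004% and differences of −13.9 and −4.10 points. Leaving out sites above 27 reads gave CG and CHG differences of −15.1 and −5.17 points. A minimum of 540 cytosines gave a CG level of 23.2%, shares of 64.98% and 31.0% and a CG difference of −14.4 points, and a minimum of 580 gave shares of 69.4% and 29.4%. A CG ratio from 0.50 to below 0.70 gave 24.1% CG, 0.669% CHH, shares of 65.6% and 31.8% and −10.1 points. Without chromosome 6 the levels were 15.8%, 11.04% and 0.498%, the shares 74.5% and 23.1% and the CG difference −17.2 points. Limits of 10% for unmethylated bins, and of 80% CG and 50% CHG for methylated bins, gave shares of 67.9% and 29.3%. Bins shifted by 500 bp gave a CG difference of −14.2 points. With either replicate alone the CG level was 21.9% to 23.9%, CHG 14.9% to 16.4%, CHH 0.601% to 0.656%, the shares 66.6% to 67.0% and 30.5% to 30.8%, and the differences −14.4 to −14.1, −4.61 to −4.42 and −4.29 to −4.24 points. The other 34 of 93 values moved by less than 1 SD of the replicates. The causes of these shifts were not tested.

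No paired analysis was possible because the series holds 1 group. Depth limits single cytosines, since 45.7% of those in GC-rich bins reached 10 reads, and leaves the 553 unscored bins without a class.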
